A study of Mus musculus with 6 samples.

Results

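The genes described here code for proteins that splice, bind or unwind RNA, and they were chosen by symbol alone. A probe was taken when the platform annotation gave it exactly 1 gene symbol starting with Sf3, Srsf, Sfrs, Hnrn, Hnrp, Snrp, Prpf, Ddx, Dhx, Rbm, Lsm or Tra2. This gave 88 of 13872 probes and 57 of 3939 genes, of which 47 had a value on all 6 arrays, against 3180 such genes in the whole table. The prefixes were merged into 10 families: 5 SF3 genes, 4 Sm and snRNP genes, 4 Lsm genes, 1 Prpf gene, 5 SR genes (Srsf), 2 Tra2 genes, 13 hnRNP genes, 10 Rbm genes, 10 Ddx genes and 3 Dhx genes. A symbol groups proteins by name: the Ddx helicases include several that act in the nucleolus or in translation and not in splicing.

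The arrays measured RNA from mouse skeletal muscle, 1 array per group and 2 channels per array. The groups were sham-operated muscle with a pacer that was implanted but never switched on, and muscle taken 0 h, 1 h, 3 h, 8 h or 24 h after 3 h of electrical pacing. The second channel always held the same RNA from control muscle, called Pre. Sham muscle was taken at the time of the 0 h group, so later differences from sham mix pacing with elapsed time, and the labels give no strain, sex, age or number of mice and do not name the muscle.

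Introns are removed by the spliceosome, which assembles on each intron from small nuclear ribonucleoproteins (snRNPs). SF3 proteins belong to the U2 snRNP and hold it at the branch point, Sm proteins form the ring of most snRNPs, Lsm proteins form the ring of U6, and DEAH helicases remodel the complex. SR proteins and hnRNPs bind the transcript and help to decide which exons are kept, and in striated muscle such regulators shape the isoforms of sarcomere and calcium-handling proteins.

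Of the member genes, 48 had a promoter in the RefSeq table (GRCm38.p6). The 250 bases before the annotated start are shown for 3 of them because their ratios lay farthest from Pre: Sf3b2 and Ddx21 were the highest members on the 3 h and 24 h arrays, and Tra2a the lowest at 3 h. Each runs 5′ to 3′ on the gene's strand, with motif matches in capitals.
Sf3b2, chr19:5295458-5295707, strand -: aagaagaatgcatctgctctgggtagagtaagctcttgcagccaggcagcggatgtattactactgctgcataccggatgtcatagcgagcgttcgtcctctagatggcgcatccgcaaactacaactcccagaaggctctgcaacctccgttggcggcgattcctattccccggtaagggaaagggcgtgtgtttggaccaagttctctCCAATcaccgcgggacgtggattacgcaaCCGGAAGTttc
Tra2a, chr6:49264053-49264302, strand -: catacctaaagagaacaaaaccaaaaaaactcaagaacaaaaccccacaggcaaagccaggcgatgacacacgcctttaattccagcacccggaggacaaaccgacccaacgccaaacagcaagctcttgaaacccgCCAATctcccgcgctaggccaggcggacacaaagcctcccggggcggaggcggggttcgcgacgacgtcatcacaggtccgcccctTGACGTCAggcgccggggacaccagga
Ddx21, chr10:62602299-62602548, strand -: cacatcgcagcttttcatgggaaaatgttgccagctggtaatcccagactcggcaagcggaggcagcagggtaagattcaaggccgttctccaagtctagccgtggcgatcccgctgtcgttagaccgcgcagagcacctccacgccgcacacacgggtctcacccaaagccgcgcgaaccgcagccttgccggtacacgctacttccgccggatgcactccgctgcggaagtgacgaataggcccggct
The 6 motifs searched on both strands were CCGGAAGT, which ETS factors bind, TGACGTCA, the element bound by CREB, the E-box written as CACGTG, the promoter box with the letters CCAAT, the TATA box written as TATAAA, and the NRF-1 motif. The Sf3b2 window held CCAAT from 40 bases and CCGGAAGT from 11 bases before the start. The Tra2a window held CCAAT from 113 bases and TGACGTCA from 27 bases before it, and the Ddx21 window held none of the 6. CCGGAAGT was in 6 of 48 member promoters (12.5%), in 2.93% of the 27025 promoters of the table and in 5.10% of the 3194 promoters of genes named on the array. CCAAT was in 21 (43.8%), against 34.5% and 37.1%, and TGACGTCA in 2 (4.17%), against 1.62% and 2.79%. The other shares in members, the table and the array genes were 4.17%, 6.05% and 8.48% for CACGTG, 8.33%, 12.97% and 7.23% for TATAAA, and 0 of 48, 0.781% and 1.503% for NRF-1. These are matches of letters and not measured sites.

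A series of 5 values from 0 h to 24 h is in the order 0 h, 1 h, 3 h, 8 h, 24 h throughout. Values are log2 ratios to Pre, read as sample over Pre, which is the likely direction since the labels name Pre the reference but not the dyes. Read the other way, every sign and rank turns, so that Ddx21 and Sf3b2, given below as the highest members, would be the lowest. All 6 ratios of a gene share Pre, so a high or low Pre value would shift them together. The share of probes measured was 87.3% to 95.2%, and for members the number was 77 at 3 h to 88 at 8 h. The arrays differed in spread, with a robust standard deviation (SD) from 0.176 at 1 h to 0.495 in sham, and no test was possible with 1 array per group. The spread between probes of the same gene, the one error these arrays give, was 0.280 at 1 h to 0.534 at 3 h for the members that had several probes measured there, and 0.228 to 0.458 over all genes. It is the error of a probe and leaves out the spread between mice. Of the 57 genes, 38 had 1 probe.

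As a group the splicing and RNA-binding genes stayed close to Pre. Their median ratio was 0.02 in sham and 0.09, -0.01, -0.01, 0.03 and 0.12 from 0 h to 24 h, and the median of all genes lay between -0.01 and 0.01. Against sham the member medians were 0.09, -0.04, -0.00035, 0.07 and 0.12 from 0 h to 24 h, beside 0.04, 0.03, 0.02, 0.06 and 0.08 over all genes. All of these member medians were smaller than the spread between probes of a gene.

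Few members stood at least 2-fold from Pre. Sham had 2 of 47 (background over all genes 3.33%), the 3 h array 5 (4.97%), and the 8 h and 24 h arrays 1 each (2.36% and 5.41%). No member reached 2-fold at 0 h (2.17%) or 1 h (0.849%). Against sham, 2 members were 2-fold away at 0 h (5.97%) and 3 at 3 h (2.14%), with 1 each at 1 h (1.32%), 8 h (3.24%) and 24 h (5.82%). The members' share at 3 h was 10.6% against Pre and 6.38% against sham, both above the background and resting on 5 and 3 genes. Over all 11 comparisons, 6 of the 47 genes (12.8%) were 2-fold away at least once, against 16.8% of all genes; these were Sf3b2, Ddx21, Snrpd1, Lsm8, Tra2a and Srsf2.

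At 1.5-fold the counts against Pre were 8 in sham (background 18.6%), 6 for the 0 h array (9.69%), 1 for 1 h (2.8%), 12 for 3 h (17.3%), 2 for 8 h (6.82%) and 8 for 24 h (17.5%). The 12 genes of the 3 h array, 25.5% of members, were 6 higher (all genes 7.8%) and 6 lower (9.53%). Against sham the counts were 12, 3, 4, 8 and 12 from 0 h to 24 h, beside backgrounds of 23.6%, 11.1%, 10.8%, 17.6% and 22.1%. The 12 of the 24 h array were 10 higher than sham (all genes 12.3%) and 2 lower (9.78%).

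The difference between a member's highest and lowest paced array had a median of 0.50, beside 0.48 over all genes, and exceeded 2-fold in 4 of 47 (8.51%; all genes 9.12%). Among the 5 paced arrays, 13 members were highest at 3 h (all genes 26.8%) and 13 at 24 h (25.8%). The lowest array was 3 h for 17 members (all genes 28.0%), 1 h for 11 (16.5%) and 24 h for 5 (21.4%).

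**Figure D1:**
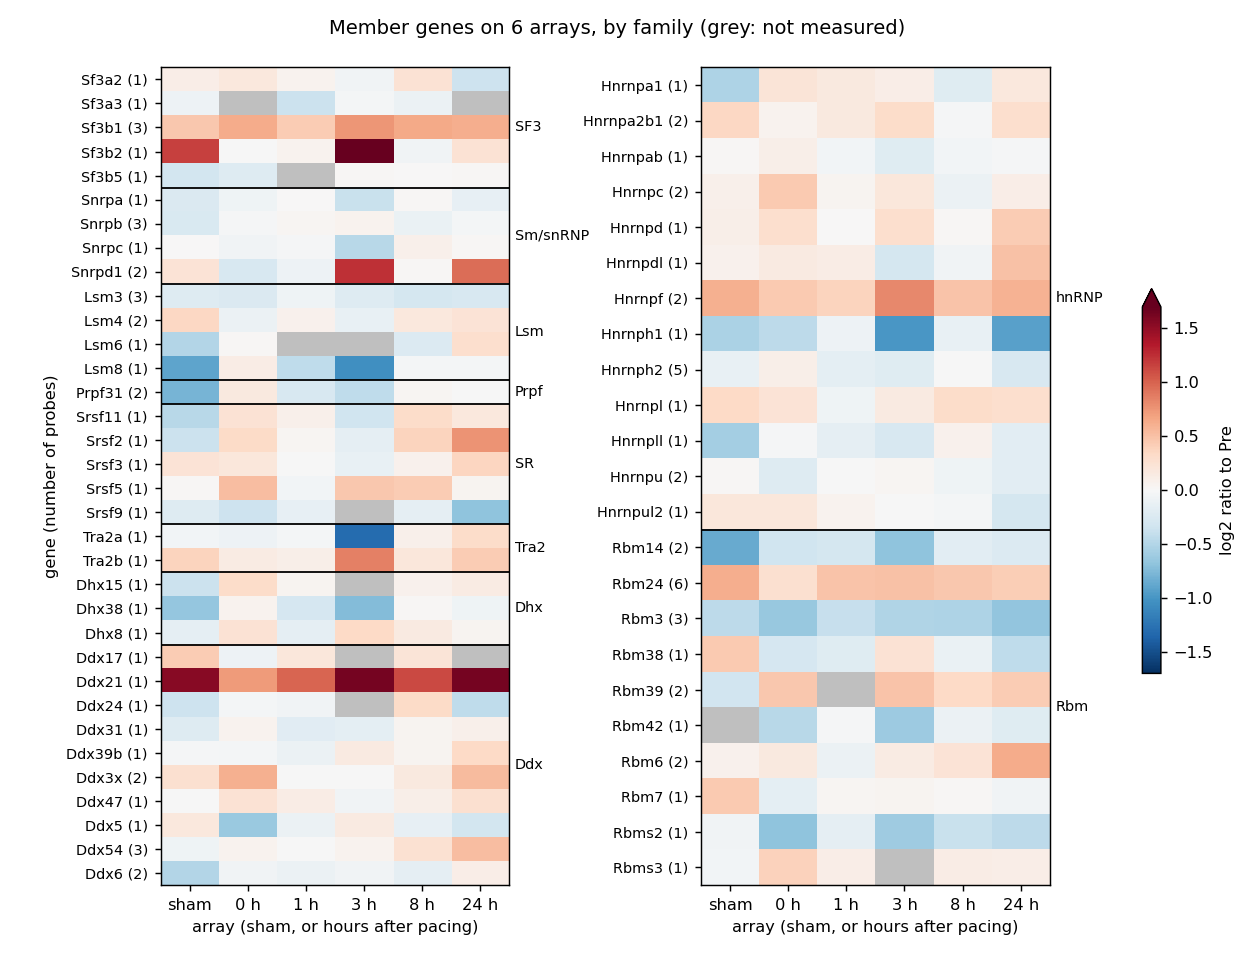
Log2 ratio to Pre (colour) of all 57 member genes (rows, with their number of probes) on the 6 arrays (columns), by family, with grey where no value was measured. Most cells are pale; Ddx21 is high on every array, Sf3b2 in sham (1.17) and at 3 h (2.41, beyond the colour scale), and Tra2a is low at 3 h (-1.31).

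The SF3 genes code for subunits of the U2 snRNP. Sf3b2, which sits with Sf3b1 at the branch point, had log2 ratios to Pre of 1.17 in sham and -0.01, 0.06, 2.41, -0.06 and 0.25 from 0 h to 24 h. It was thus high on 2 arrays, sham and 3 h, and near Pre on the others. At 3 h it was 5.31-fold above Pre and 2.36-fold above sham, the highest member on both scales. At 0 h, 1 h and 8 h the same gene was 2-fold below sham, at -1.18, -1.10 and -1.23, while against Pre those 3 times stood within 0.06 of 0. When each array was scaled to the same robust SD, 3 h stayed 2-fold above sham (1.06), while sham against Pre (0.82) and the 3 lower differences (-0.83, -0.69 and -0.90) did not reach 2-fold. Sf3b2 had 1 probe, so no second probe checks this course.

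Sf3b1, the largest SF3B subunit, had gene means of 0.46 in sham and 0.64, 0.44, 0.75, 0.65 and 0.62 from 0 h to 24 h. These means were above Pre on each array and differed from the sham mean by at most 0.29. Its 3 probes disagreed: on the paced arrays one stood from -0.04 to 0.09, and another from 0.68 to 1.41. The third was at 0.57 to 0.93 and had no 3 h value. Against sham at 3 h the 2 measured probes stood at -0.41 and 1.17, with a mean of 0.38 and a probe SD of 1.12. Sf3a2, an SF3A subunit, lay between -0.35 at 24 h and 0.24 at 8 h. Sf3a3 (no value at 0 h and 24 h) was lowest at 1 h, at -0.37, and Sf3b5 (none at 1 h) lay between -0.31 in sham and 0.02.

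**Figure D2:**
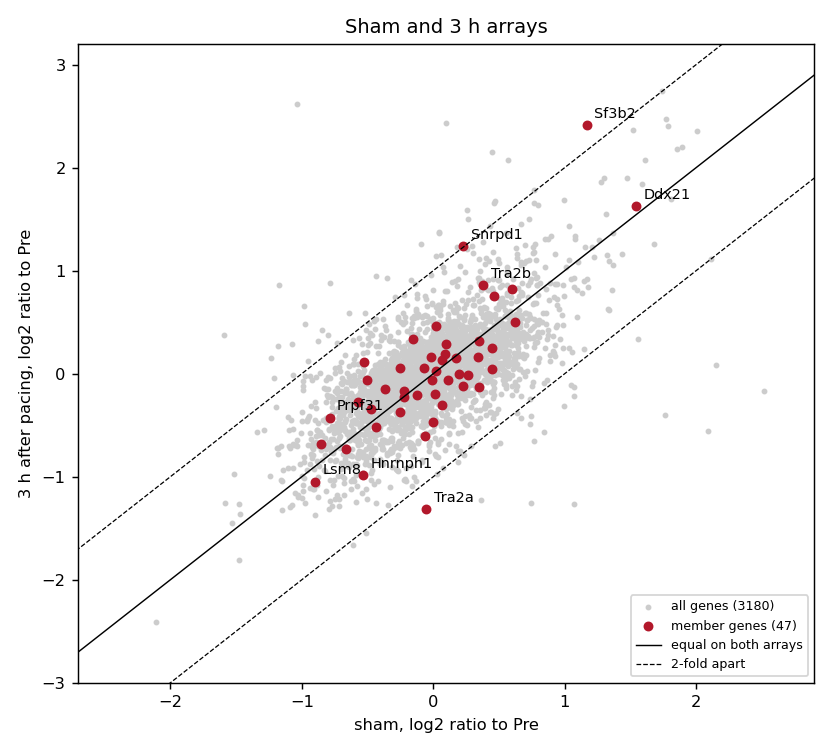
Log2 ratio to Pre in sham (x axis) against that at 3 h after pacing (y axis) for the 3180 genes with values on all 6 arrays (grey) and the 47 member genes (red); dashed lines mark a 2-fold difference between the arrays. Sf3b2, Snrpd1 and Tra2a lie beyond the dashed lines, while Ddx21 and Lsm8 lie near the solid line of equal values.

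Among Sm and snRNP genes, Snrpd1, which codes for the ring protein SmD1, was the one that left Pre. Its ratios were 0.23 in sham and -0.27, -0.09, 1.24, 0.01 and 0.95 from 0 h to 24 h. The 3 h and 24 h arrays were high and the 8 h array between them was level with Pre. On both probes the 3 h value was highest and the 8 h value near Pre. The first probe read 1.86, -0.02 and 1.42 on the 3 h, 8 h and 24 h arrays, and the other read 0.62, 0.04 and 0.48. At 3 h the gene was 2.36-fold above Pre and 2.02-fold above sham, a log2 difference of 1.01 with a probe SD of 0.66 (2 probes). The probes' own differences from sham were 1.48 and 0.55, and after scaling the gene was under 2-fold from Pre (0.96) and sham (0.80).

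The other Sm and snRNP genes stayed closer to Pre. Snrpb, which codes for SmB, had means between -0.25 in sham and 0.05 at 3 h. Its 3 probes disagreed, from -0.70 to 0.03 in sham and from -0.28 to 0.44 at 3 h. Snrpa, the U1 protein that binds a stem loop of the RNA, lay between -0.37 at 3 h and 0.03 at 8 h. Snrpc, the U1 protein at the 5′ splice site, stood at -0.47 at 3 h and between -0.06 and 0.08 on the other arrays. At 3 h Snrpd1 was therefore the high member of this family, and Snrpa and Snrpc were below Pre.

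Of the Lsm genes, which code for the ring around U6 and, in another combination, for a ring that acts in mRNA decay, Lsm8 is the member that marks the nuclear U6 ring. Lsm8 stood at -0.90 in sham and 0.12, -0.43, -1.05, -0.03 and -0.04 from 0 h to 24 h. Sham and 3 h were low, 1 h intermediate, and the rest near Pre. It was 2.03-fold above sham at 0 h, and at 0.87 and 0.86 above it in log2 at 8 h and 24 h, with 1 probe. Against Pre the same 3 values were at most 0.12 in size, and the sham value was -0.90. After scaling, Lsm8 was under 2-fold from sham at 0 h (0.77) and from Pre at 3 h (-0.81).

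The other Lsm genes showed smaller values. Lsm4 lay between -0.13 at 3 h and 0.35 in sham (2 probes). Lsm3 lay between -0.30 at 8 h and -0.08 at 1 h, below Pre on each array, with 1 to 3 of its 3 probes measured. Lsm6, without a value at 1 h and 3 h, stood at -0.50 in sham, 0.02 at 0 h, -0.24 at 8 h and 0.28 at 24 h.

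Prpf31, the 1 Prpf gene, codes for a protein that holds the U4/U6 and U5 particles together. It stood at -0.79 in sham and 0.16, -0.28, -0.43, 0.04 and -0.01 from 0 h to 24 h. Sham was the lowest of the 6 arrays, and its 2 probes there were -0.80 and -0.78. Against sham the log2 difference was 0.82 at 8 h (2 probes, probe SD 0.07) and 0.78 at 24 h (probe SD 0.08), both under 2-fold. At 3 h the probes were -0.76 and -0.09.

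The DEAH helicases remodel the spliceosome and release its products. Dhx38, which acts before exon ligation, resembled Lsm8 and Prpf31 in its values: -0.66 in sham and 0.07, -0.28, -0.74, 0.02 and -0.07 from 0 h to 24 h. Sham and 3 h were also alike over all genes, where the robust SD of their difference was 0.329. Against Pre it was 0.429 for sham and 0.386 for 3 h. For the other times against sham it was 0.480 (0 h), 0.352 (1 h), 0.405 (8 h) and 0.450 (24 h). The 1 h array was thus nearly as close to sham as 3 h. Whether low values shared by sham and 3 h are particular to these genes was not tested. Dhx8, which releases the spliced mRNA, lay between -0.15 in sham and at 1 h and 0.34 at 3 h. Dhx15, which takes the spliceosome apart, had no value at 3 h and lay between -0.37 in sham and 0.31 at 0 h. All 3 had 1 probe.

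SR genes had positive medians against sham at each time. The 4 members measured on all arrays had medians against sham of 0.60, 0.17, 0.18, 0.58 and 0.40 from 0 h to 24 h. The number of them above sham was 3, 2, 3, 3 and 4. Of all genes, 53.7%, 52.8%, 53.1%, 55.6% and 57.5% were above sham at these times. Against Pre the medians were -0.17 in sham and then 0.29, 0.01, -0.14, 0.34 and 0.27. No test was possible over 4 genes on single arrays, and each gene had 1 probe. The fifth SR gene, Srsf9, was below sham at 0 h (-0.13) and 24 h (-0.47). With it included where measured, the medians were 0.50, 0.08, 0.41 and 0.14 for 0 h, 1 h, 8 h and 24 h. The medians against sham stayed above 0 under the 5 alternatives tried, from 0.08 to 0.69. All 5 used the same sham array, so they cannot check its values.

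Srsf2, an SR protein that binds exonic enhancers and stays in the nucleus, had ratios of -0.37 in sham and 0.32, 0.04, -0.15, 0.37 and 0.76 from 0 h to 24 h. Sham was the lowest array and 24 h the highest, 2.19-fold apart; no other member was 2-fold above sham at 24 h, and after scaling Srsf2 was not (0.92). Srsf11 stood at -0.48 in sham and -0.34 at 3 h, and between 0.09 and 0.31 on the other arrays. Srsf5, long known as a gene of growth-stimulated cells, stood at 0.53 at 0 h, 0.46 at 3 h and 0.43 at 8 h, but at 0.02 in sham, -0.05 at 1 h and 0.04 at 24 h. Srsf3, the smallest SR protein, lay between -0.12 at 3 h and 0.37 at 24 h. Unlike the family median, Srsf3 was below sham at 0 h (-0.03), 1 h (-0.24), 3 h (-0.35) and 8 h (-0.15). Srsf9, not measured at 3 h, lay below Pre on the other arrays, from -0.14 at 1 h to -0.69 at 24 h.

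The Tra2 proteins resemble SR proteins and promote the inclusion of exons. Tra2a had ratios of -0.05 in sham and -0.09, -0.03, -1.31, 0.09 and 0.31 from 0 h to 24 h. The 3 h array alone was low, and the other 5 lay within 0.31 of Pre. The log2 difference from sham at 3 h was -1.26, the lowest of the members, and -0.98 after scaling. Its relative Tra2b stood at 0.38 in sham and 0.14, 0.10, 0.86, 0.20 and 0.43 from 0 h to 24 h, so at 3 h the 2 relatives stood on opposite sides of Pre. Each had 1 probe. Against both sham and Pre, Sf3b2 and Snrpd1 were 2-fold higher at 3 h (0.629% of all genes met this) and Tra2a was 2-fold lower (0.189%). No member met both at the other times, where the shares of all genes, higher and lower, were 0.535% and 0.283% (0 h), 0.0629% and 0% (1 h), 0.314% and 0.283% (8 h), and 1.23% and 0.818% (24 h).

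**Figure D3:**
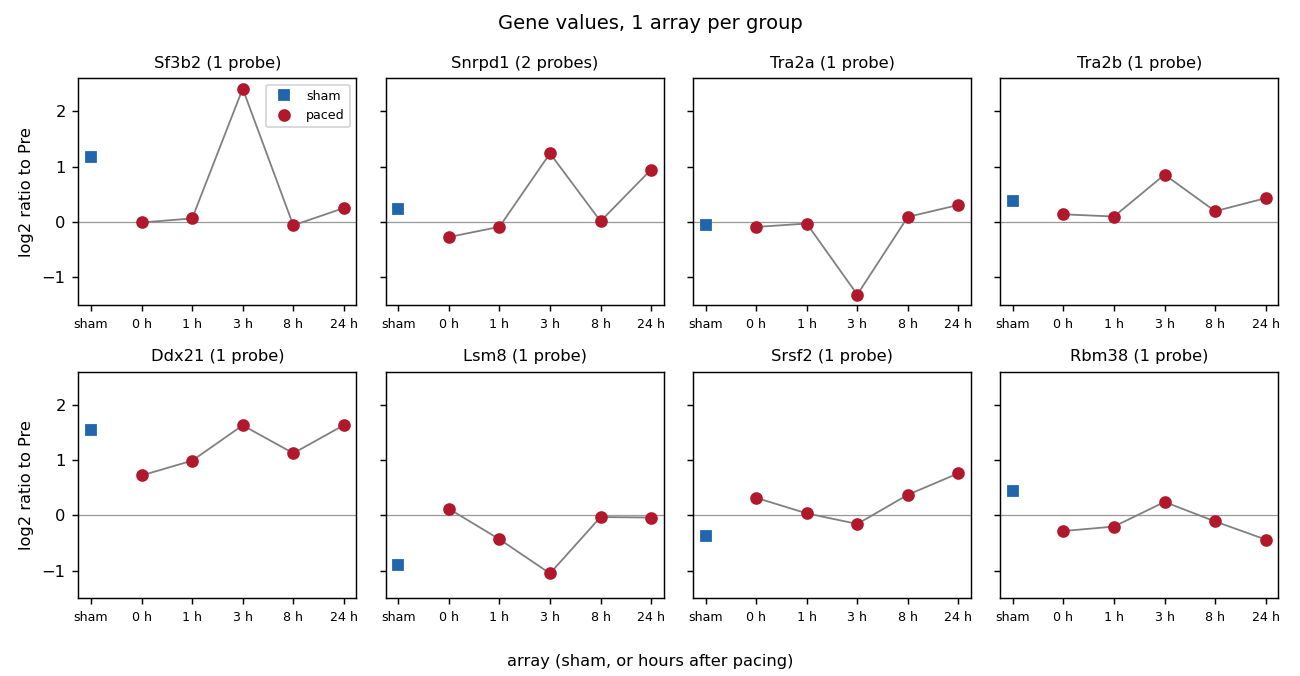
Log2 ratio to Pre (y axis, same scale) of 8 member genes on the sham array (square) and on the arrays at 0 h to 24 h after pacing (circles, joined in order of time; times are not to scale); each point is 1 array. Sf3b2 and Snrpd1 peak and Tra2a dips at 3 h, where Lsm8 is about as low as in sham.

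The hnRNPs coat the nascent transcript, and many of them repress exons or steer mRNA export. The 13 genes, all measured on every array, had medians against Pre of 0.07 in sham and 0.16, 0.01, 0.03, -0.04 and 0.12 from 0 h to 24 h. None was 2-fold from Pre or sham on any array, while 16.8% of all genes were at least once. With 13 genes this is not read as a trait of the family. At 0 h 10 of the 13 were above Pre (all genes 50.2%) and at 8 h 4 of 13 (51.3%).

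Hnrnpf and Hnrnph1 code for related proteins that bind runs of G, and their gene values lay on opposite sides of Pre. Hnrnpf stood at 0.60 in sham and 0.45, 0.38, 0.82, 0.49 and 0.59 from 0 h to 24 h. Its 2 probes disagreed by most at 0 h, at 1.13 and -0.24. The probe that was below Pre at 0 h was also near it at 1 h (0.03) and 8 h (0.10). Hnrnph1 stood at -0.53 in sham and -0.44, -0.09, -0.99, -0.12 and -0.93 from 0 h to 24 h, with 1 probe. Hnrnph2, a close relative of Hnrnph1, lay between -0.27 and 0.09 as the mean of 3 to 5 measured probes, which were far apart at 3 h, from -0.92 to 0.17.

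Hnrnpa1, an abundant hnRNP that represses exons, was at -0.53 in sham and at 0.23, 0.17, 0.11, -0.20 and 0.18 from 0 h to 24 h. Its log2 differences from sham were 0.75, 0.70, 0.64, 0.32 and 0.70, and it was the highest hnRNP gene against sham at 0 h, 1 h, 3 h and 24 h, without reaching 2-fold (1 probe). Hnrnpa2b1 lay between -0.02 and 0.35 (2 probes). Hnrnpc, which measures transcript length in the nucleus, had its highest value at 0 h, at 0.45, where only 1 of its 2 probes was measured. At 8 h its probes read 0.20 and -0.39. Hnrnpu, which binds chromatin and RNA, had means between -0.22 and 0.03, from 2 probes that read -0.61 and 0.18 at 0 h. Hnrnpd and Hnrnpdl, relatives of which Hnrnpd binds AU-rich elements, were highest at 24 h, at 0.44 and 0.50. The remaining Hnrnpab, Hnrnpl, Hnrnpll and Hnrnpul2 lay between -0.57 (Hnrnpll in sham) and 0.34 (Hnrnpl in sham).

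Rbm24 and Rbm38 code for related proteins that bind RNA in striated muscle, where Rbm24 regulates splicing. Rbm24 had the most probes of any member, 6, and gene means of 0.62 in sham and 0.27, 0.49, 0.50, 0.46 and 0.42 from 0 h to 24 h. All 6 probes were above Pre in sham, from 0.32 to 0.95, and at 24 h, from 0.16 to 0.72. The differences from sham were -0.35 ± 0.42 (probe SD, 6 probes) at 0 h and between -0.12 and -0.20 later, smaller than the probe SD at each time. Rbm38 had 1 probe and stood at 0.44 in sham and -0.28, -0.20, 0.25, -0.11 and -0.43 from 0 h to 24 h. At 24 h it was the lowest member of the Rbm family against sham, at -0.88.

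Rbm3, a cold-inducible RNA-binding protein, had means of -0.44 in sham and -0.65, -0.40, -0.51, -0.52 and -0.67 from 0 h to 24 h. The 3 probes were far apart: one lay between -1.64 and -0.85 and another between -0.03 and 0.42 over the 6 arrays. The differences from sham, 0.04 at most above and -0.23 at most below, were within their probe SDs of 0.23 to 0.63. Rbm39, a relative of the U2AF splicing factor, had 2 probes and no value at 1 h. Its log2 differences from sham were 0.78 at 0 h (probe SD 0.25), 0.81 at 3 h (0.38), 0.67 at 8 h (0.14) and 0.75 at 24 h (0.0039). Its sham value was -0.33 and the paced values were 0.34 to 0.48, so it was higher than sham at each time measured, under 2-fold.

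**Figure D4:**
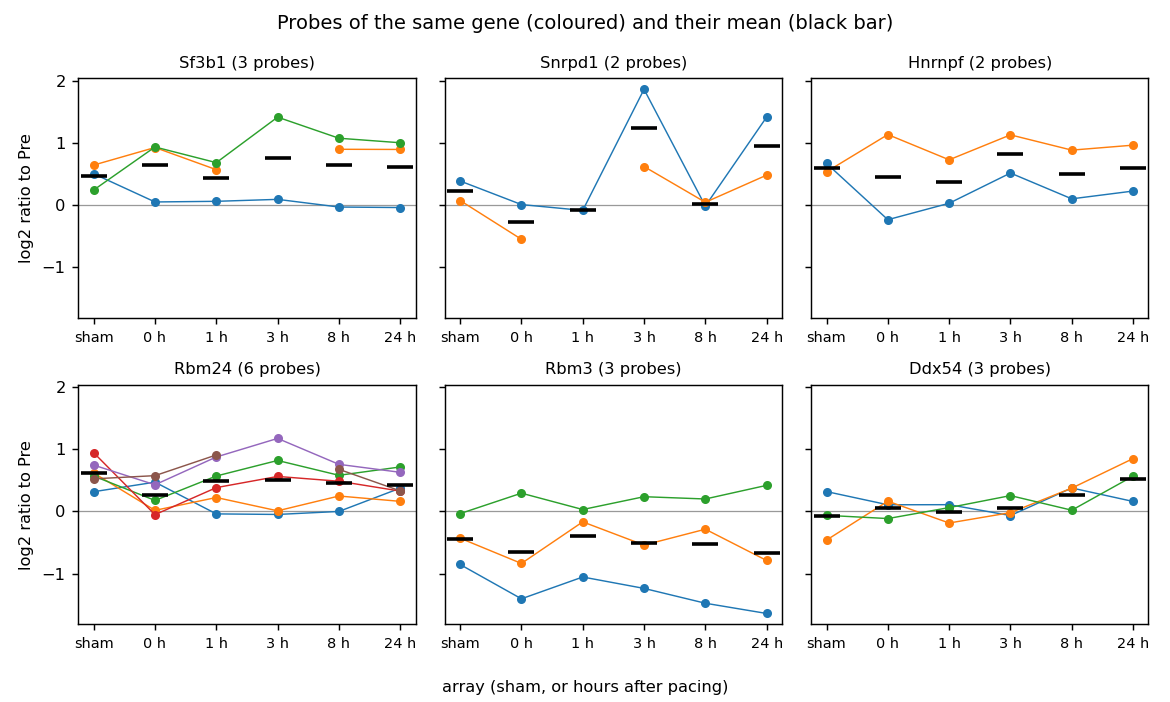
Log2 ratio to Pre (y axis) of each probe (coloured points joined by lines) of 6 member genes on the 6 arrays, with the mean of the measured probes (black bar); gaps are unmeasured. The probes of Rbm3, Sf3b1 and Hnrnpf stand apart on most arrays, and both probes of Snrpd1 are high at 3 h and 24 h.

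The other Rbm genes stood as follows. Rbm14, a coactivator found in paraspeckles, was at -0.85 in sham and -0.69 at 3 h and between -0.34 and -0.18 on the other arrays, from 2 probes that disagreed (-1.47 and -0.23 in sham, -1.39 and 0.02 at 3 h). Rbm7, which guides the nuclear exosome, was at 0.45 in sham and between -0.17 and 0.05 after pacing. Rbms2 was at -0.68 at 0 h and -0.61 at 3 h, and at -0.06 in sham. Rbm6 was highest at 24 h, at 0.63 (2 probes, 0.58 and 0.69). Rbm42, without a sham value, lay from -0.62 to -0.02, and Rbms3, without a 3 h value, from -0.04 to 0.39.

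The 7 Rbm genes measured on all arrays had medians below sham at each time, -0.35, -0.13, -0.12, -0.16 and -0.23 from 0 h to 24 h. At each time 5 were below sham and 2 above. Of all genes, 53.7%, 52.8%, 53.1%, 55.6% and 57.5% were above. The medians stayed below 0 under the 5 alternatives, from -0.46 to -0.08, all of which used the same sham array and cannot check its values. All-gene medians were above sham at these times, so the medians of these 7 genes lay on the other side. The size was under the probe SD, which is not the error of a median of 7 genes. Rbm39 and Rbms3, both above sham at each time measured, are not among the 7. With all Rbm genes measured in the comparison, 4 of 9 were above sham and 5 below at 0 h, 8 h and 24 h, a nearly even split. The medians there were -0.21, -0.08 and -0.20.

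Ddx21, a nucleolar helicase that helps transcription and processing of ribosomal RNA, was the highest member on 5 of 6 arrays. Its ratios were 1.55 in sham and 0.72, 0.99, 1.63, 1.13 and 1.63 from 0 h to 24 h. Every array was above Pre, sham included, and 4 were at least 2-fold above it. Against sham it stood at -0.82, -0.55, 0.08, -0.42 and 0.09 from 0 h to 24 h. The sham value was thus as high as any paced value to within 0.09. When each array was scaled to the same robust SD, the 1 h and 8 h differences were positive, 0.86 and 0.53. It had 1 probe.

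Ddx5 and Ddx17 code for paired helicases that work in splicing and as coactivators of muscle genes. Ddx5 stood at 0.18 in sham and -0.63, -0.09, 0.15, -0.13 and -0.31 from 0 h to 24 h, lowest directly after pacing. Ddx17 stood at 0.43 in sham, -0.08 at 0 h, 0.20 at 1 h and 0.21 at 8 h and was not measured at 3 h and 24 h. Both were thus lower at 0 h than in sham, by log2 differences of -0.81 and -0.52, each from 1 probe.

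Of the other Ddx genes, Ddx54, Ddx6, Ddx39b, Ddx47 and Ddx31 had their highest value at 24 h. Ddx54, a nucleolar helicase, stood at 0.53 at 24 h (3 probes, 0.16 to 0.85) and between -0.07 and 0.26 before. Ddx3x, which acts in translation, was at 0.60 at 0 h and 0.54 at 24 h, and its 2 probes were 0.83 and 0.37 at 0 h and 1.09 and -0.01 at 24 h. Ddx6, a helicase of mRNA decay, was lowest in sham, at -0.50, and at 0.12 at 24 h. Ddx39b, which acts in splicing and export, was highest at 24 h, at 0.34. Ddx47 and Ddx31, of ribosome assembly, lay between -0.22 and 0.27, and Ddx24, without a 3 h value, between -0.43 and 0.32. Of the 8 Ddx genes measured on all arrays, 7 were above Pre and 7 above sham at 24 h. Their medians were 0.31 and 0.29. Over all genes, 51.7% were above Pre and 57.5% above sham. Ddx24, not among the 8, was below both at 24 h, at -0.43 against Pre and -0.09 against sham. Of the 2 Ddx3x probes, 1 was also below both, at -0.01 and -0.17.

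Genes of splicing outside these prefixes gave similar small values. Of 51 other spliceosome components listed, 19 were named on the array and 13 measured on all arrays. Their medians against sham were 0.14, 0.06, 0.15, 0.12 and 0.10 from 0 h to 24 h. The 1 member 2-fold from sham was Ctnnbl1, an associate of the Prp19 complex. It was at 1.20 at 0 h (all genes 5.97%) and 1.09 at 1 h (1.32%), with sham itself at -1.19. At 24 h Ctnnbl1 was also 2-fold below Pre, at -1.05, and 0.15 from sham. Of 44 other splicing regulators and kinases, 21 were on the array and 18 measured on all; their medians were -0.07, 0.01, -0.01, 0.06 and 0.15, and none was 2-fold from sham. Srpk3, a muscle kinase of SR proteins, was 2-fold from Pre at 24 h, at 1.06 (all genes 5.41%). Tial1, which binds U-rich RNA and had no 0 h value, was 2-fold below Pre at 3 h, at -1.06. Srpk3 stood at 0.63 in sham and -0.28 at 0 h. Clk1, another SR kinase, was below Pre at 0 h (-0.42), 1 h (-0.34) and 3 h (-0.26), at 0.24 in sham and at 0.81 at 24 h.

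The muscle regulators Mbnl1 and Rbfox1 were above Pre on each array, Mbnl1 at 0.12 to 0.29 and Rbfox1 at 0.28 to 0.94. Farthest from sham, both at 0 h, were Mbnl1 at 0.11 and Rbfox1 at -0.37. Celf2, which opposes Mbnl proteins on many exons, was at -0.96 at 0 h and between -0.11 and 0.31 on the other arrays. Ptbp1, a repressor of exons that falls during muscle differentiation, lay between -0.52 at 3 h and 0.06 at 8 h.

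Ratios give no level, so the tissue could not be checked by presence of its markers. The 18 skeletal muscle fibre markers measured on all arrays had medians against sham between -0.08 and 0.04. Among them Cacna1s stood at 1.34, 1.25, 1.45, 0.33 and 1.17 against sham from 0 h to 24 h, with a sham ratio of -1.18 to Pre. Casq1 stood at -0.77 at 8 h and -1.04 at 24 h, and no other fibre marker was 2-fold from sham. The 6 fibroblast markers had medians of -0.38, -0.31, -0.34, -0.63 and -0.67 from 0 h to 24 h, with 5 of 6 below sham at 3 h, 8 h and 24 h. The 6 endothelial markers had medians from -0.01 to 0.15, with Cdh5 alone 2-fold from sham, at 1.19 at 3 h. The 3 leukocyte markers had medians from 0.05 to 0.37. Another leukocyte marker, Ptprc, had no 3 h value and was below sham elsewhere, at -0.91 (0 h), -0.75 (1 h), -0.46 (8 h) and -0.33 (24 h). The 4 smooth muscle markers had medians from -0.55 to -0.13 but lay far apart: Actg2 was at -3.41 to -2.53 against sham, with a sham ratio of 2.52 to Pre, and Myl9 at 0.45 to 1.42. Of the rest, 1 adipocyte marker and 1 erythroid marker were measured on all arrays, while none of the 7 neutrophil markers was named. The part of cell makeup in the differences above was not tested, and in whole muscle fewer cells of a type and less RNA per cell cannot be told apart. cDNA spots can bind close relatives, so Hnrnph1 and Hnrnph2, Ddx5 and Ddx17, and Tra2a and Tra2b are uncertain as to the family member.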

How the data were processed

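Per the labels, each array compared one muscle RNA with Pre. The values deposited by the authors are log10 ratios, 1 for each probe; the base was read from rounding residues, and the scanner and normalization are not stated in the labels. Zeros (201 in sham, 665 to 1762 on paced arrays) and values shared within a run of 289 probes (154 in sham, at most 8 elsewhere) were treated as missing. Ratios were converted to log2 and centred on each array's median. Of 13872 probes, 6609 had 1 symbol, 284 several and 6979 none; 9 probes with several symbols, one of them fitting, were left out. Entrez IDs of all 88 member probes were found in the RefSeq table (GRCm38.p6). A gene is the mean of its measured probes. Calls were an absolute log2 of 1 (2-fold) or 0.58 (1.5-fold), without tests; 1 array per group limits the precision. Python 3.11.15 and pandas 2.3.3 were used, and the steps were tested on simulated data. The simulation had less noise than any array and changes well past 2-fold. It checks the code and not the error of the calls. Members, lists and alternatives were chosen with earlier results of these data known. Named genes were those 2-fold away, the highest and lowest of each family by paced mean, those with 3 or more probes and 35 core genes (23 on the array); other members were added after their values were seen, to account for all 57.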

Additional observations from a re-analysis of the deposited data

Results flagged for a closer look

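Sf3b2 was 2-fold from sham in opposite directions at different times. Its log2 difference from sham was -1.18 at 0 h, -1.10 at 1 h and -1.23 at 8 h, but 1.24 at 3 h. Each value is 1 probe on 1 array, all 4 share the sham value of 1.17, and the difference between times was not tested. Against Pre the values were -0.01, 0.06 and -0.06 at 0 h, 1 h and 8 h and 2.41 at 3 h. When each array was scaled to the same robust SD, the lower differences were -0.83, -0.69 and -0.90, under 2-fold, so the opposite 2-fold calls ended and 3 h alone, at 1.06, was 2-fold from sham.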

How the results depend on the processing

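Member medians and 2-fold counts were recomputed with zeros and shared values kept, with each array scaled to the same robust SD, without centring, with every gene measured in the comparison and, against sham, with probes measured on both arrays. Of these values 90 stayed within the spread between probes (medians) or within 1.5 times (counts), and medians stayed between -0.04 and 0.15. The other 8 were counts under scaling. Against Pre these were 1 in sham, 1 for the 1 h array and 3 for the 3 h array. Against sham the scaled counts were 0, 0, 1, 0 and 0 from 0 h to 24 h, in order of time. The gene left for 3 h was Sf3b2, with Snrpd1 at 0.80 and Tra2a at -0.98. Scaling by construction shrinks the sham, 3 h and 24 h arrays, which have the widest spread. No 2-fold value turned its sign. Leaving out a replicate was not possible. No paired analysis was possible because each group had 1 array.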

Other observations

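Among 56 listed genes of mRNA export, the exon junction, polyadenylation and decay, 13 were named on the array and 9 measured on all arrays. Their medians against sham were 0.29, 0.20, -0.0022, 0.18 and 0.26 from 0 h to 24 h. Pabpc1, the cytoplasmic poly(A)-binding protein, stood at -0.66 in sham and 0.27, 0.01, 0.01, 0.33 and 0.85 after pacing, in order of time. Its log2 difference from sham at 24 h was 1.51. Ncbp1, the large subunit of the nuclear cap-binding complex, stood at -1.19 in sham and -0.53, -0.24, -0.73, -0.0034 and -0.15 after pacing. It was 2-fold above sham at 8 h (1.19) and 24 h (1.04), where 3.24% and 5.82% of all genes were 2-fold from sham. Both genes were lowest in sham.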
